A study of Mus musculus with 19 samples.

Results

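The mRNA levels of 35 genes of glutathione metabolism and the antioxidant response were examined in mouse liver. The genes were listed by symbol, with no filter on measured values, though with earlier results of these data known. They come from the families that conjugate, make and recycle glutathione, remove peroxides and superoxide, or are regulated by NRF2. All 35 were among the 55836 genes of the deposited table, and all 35 were among the 13597 that passed the filter on low counts. Bulk poly(A) RNA-seq of the liver had been performed in 19 male wild-type C57BL/6 mice, 1 library per mouse, which were 8 weeks old at the start. The mice received a control diet (CD, labelled as chow) or a diet rich in fat, fructose and cholesterol (MD) that models metabolic dysfunction-associated steatohepatitis. Within each diet they were gavaged daily for 8 weeks with vehicle (Veh, water with Tween 20, which every group received) or with 2 mg of polyethylene microplastic particles (PE) per day. There were 4 mice in CD + Veh and 5 in each of CD + PE, MD + Veh and MD + PE. Mice of 1 group were housed together, so that cage and group cannot be told apart.

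Glutathione is a small thiol that hepatocytes make in large amounts. Glutamate-cysteine ligase, built from the catalytic subunit Gclc and the modifier Gclm, joins glutamate to cysteine, and glutathione synthetase (Gss) adds glycine. Glutathione transferases couple the thiol to reactive compounds, glutathione peroxidases spend it on peroxides, and glutathione reductase (Gsr) regenerates it with NADPH. Many of these genes are textbook targets of the transcription factor NRF2 (Nfe2l2), which the adaptor KEAP1 holds at a low level by presenting it for degradation, and which binds an antioxidant response element in its targets. NRF2 is regulated mainly through protein stability, which mRNA does not report.

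Several of these genes lie side by side. In the GENCODE vM39 annotation of GRCm39, which was used for all gene positions, the mu transferases Gstm6, Gstm3, Gstm2, Gstm1 and Gstm4 follow each other on the minus strand of chromosome 3, from 107844454 (Gstm6) to 107952210 (Gstm4). Gsta4, Gsta1 and Gsta2 lie on chromosome 9 between 78090056 and 78263077, with Gclc on the same chromosome at chr9:77661797-77701770 and Gpx1 at chr9:108216102-108217546. Gss is at chr2:155405096-155455505. The coding sequences of Gsta1 and Gsta2 were identical at 97.61% of aligned bases, and those of Gstm1 and Gstm3 at 89.45%. Gstm2 was identical to Gstm1 at 85.93% and to Gstm6 at 85.63%. Reads of such pairs can be assigned to the wrong copy, so their single values are uncertain. Sums are given beside them for Gsta1 with Gsta2 and for the mu members.

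Promoter sequence was available from RefSeq (GRCm38.p6) for 29 of the 35 genes, with 41 windows of the 250 bases before a transcription start. The core of the antioxidant response element was searched as TGACNNNGC on both strands. It was found in 7 of the 29 genes (Gsta3, Mgst1, Gclm, Nfe2l2, Txnrd1, Prdx1 and Sod1) and in 11.5% of all 27025 genes with a window. The windows of Gsta2, Gss and Gpx1 are shown because these genes were called both after PE on the CD and after MD with vehicle, and that of Mgst1 because it is the called gene whose window held the motif. Gclc has no window in the table. Each is written 5′ to 3′ in the direction of the gene and ends at the base before the start, and capitals mark a motif match, here on the opposite strand. The positions are chr9:78347146-78347395 (minus strand) for Gsta2, chr2:155592811-155593060 (minus) for Gss, chr9:108338830-108339079 (plus) for Gpx1 and chr6:138140277-138140526 (plus) for Mgst1.
Gsta2: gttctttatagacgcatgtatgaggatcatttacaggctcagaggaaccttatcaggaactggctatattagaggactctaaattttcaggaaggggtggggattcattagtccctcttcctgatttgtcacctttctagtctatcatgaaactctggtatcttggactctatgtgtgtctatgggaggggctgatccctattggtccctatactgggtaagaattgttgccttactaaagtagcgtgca
Gss: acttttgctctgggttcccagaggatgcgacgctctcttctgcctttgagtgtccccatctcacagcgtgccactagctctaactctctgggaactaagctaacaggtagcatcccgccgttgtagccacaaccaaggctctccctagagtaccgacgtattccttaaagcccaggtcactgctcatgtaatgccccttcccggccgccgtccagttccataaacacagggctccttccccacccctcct
Gpx1: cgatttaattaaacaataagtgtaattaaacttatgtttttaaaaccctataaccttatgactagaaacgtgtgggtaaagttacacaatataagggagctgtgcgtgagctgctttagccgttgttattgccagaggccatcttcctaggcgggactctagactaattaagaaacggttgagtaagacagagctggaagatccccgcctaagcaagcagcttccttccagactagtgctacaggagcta
Mgst1: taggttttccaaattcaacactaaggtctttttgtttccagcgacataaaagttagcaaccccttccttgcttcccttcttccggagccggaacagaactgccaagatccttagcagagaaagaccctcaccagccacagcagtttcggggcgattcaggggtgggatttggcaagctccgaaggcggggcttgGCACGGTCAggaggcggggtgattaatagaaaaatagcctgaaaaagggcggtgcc
The match in Mgst1 began 56 bases before the start, and a second Mgst1 window, for another start, held none. A match describes letters only, and the absence of one in these windows says nothing of a site elsewhere.

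Library totals were 10398820 to 15456729 counts. The CD + PE and MD + PE libraries (10398820 to 12757617 counts) were shallower than the vehicle libraries (13406037 to 15456729 counts), and they also carry later library numbers (48 to 57 against 39 to 47), so that PE and the order of the libraries cannot be told apart. In earlier results of these data, libraries divided between numbers 45 and 46, which places MD + Veh replicates 4 and 5 with the PE libraries. The labels name no such division, and what it stands for was not tested. In depth, MD + Veh replicates 4 and 5 (13406037 and 14217720 counts) lay above every PE library. Hepatocyte markers were abundant in every library, with a summed level of 52400 to 102817 CPM (counts scaled to a common library size) over 8 genes. Every MD library (52400 to 70047 CPM) lay below every CD library (71917 to 102817 CPM). A few libraries stood apart in markers of other cells. Summed Kupffer cell markers reached 639 CPM in CD + PE replicate 2 against 76.0 to 282 CPM in all other libraries, skeletal muscle markers reached 4464 CPM in MD + Veh replicate 1, and intestinal markers reached 286 CPM in MD + PE replicate 2. Results were therefore recomputed without these 3 libraries. Other departures stayed in that fit. MD + PE replicate 4 had 113 CPM of bile duct markers (at most 57.3 CPM in the other libraries, apart from 147 CPM in MD + PE replicate 2) and 463 CPM of stellate markers (151 to 310 CPM, apart from 534 CPM in MD + Veh replicate 1), and CD + PE replicate 1 had 518 CPM of skeletal muscle markers (1.12 to 284 CPM, apart from MD + Veh replicate 1). Each library was also left out singly.

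Levels are given as CPM scaled by the TMM factors of edgeR. A gene was called when its Benjamini-Hochberg adjusted p from the edgeR quasi-likelihood test was below 0.05 over all genes tested and its absolute log2 fold change was at least 0.38. Of the 35 genes, 10 were called in at least 1 comparison and 25 in none. PE on the CD raised 4 of the 35 and lowered none, where 2.92% of all genes tested were called (1.22% higher and 1.7% lower). MD with vehicle raised 7 and lowered 1, where 10.4% of all genes were called (4.74% higher and 5.63% lower). PE on the MD raised none and lowered 2, where 1.08% of all genes were called (0.147% higher and 0.934% lower). MD in the PE-gavaged mice raised 2 and lowered 2, where 4.61% of all genes were called (1.69% higher and 2.92% lower). The median log2 fold change of the 35 genes was 0.05, 0.29, −0.12 and 0.07 in these comparisons, in that order, beside 0.01, 0.00, −0.01 and −0.02 for all genes tested. These medians moved with the settings. That for PE on the CD ran from 0.02 (without CD + PE replicate 2) to 0.14 (without CD + Veh replicate 4) when 1 library was left out, and it also moved by over 1.5 times without CD + Veh replicate 2 or any 1 of the CD + PE replicates. It was 0.02 without the 3 libraries, 0.09 with GC and length trends removed, 0.16 with the library division in the fit and −0.03 with a clock score, described at the end, in the fit. That for MD with vehicle was 0.05 with the clock score. That for PE on the MD was −0.05 without MD + PE replicate 3, −0.07 without MD + Veh replicate 3 and −0.04 with the library division, and that for MD in PE mice was 0.10 without CD + PE replicate 2 and 0.13 without the 3 libraries. CD + PE and MD + Veh were both compared with the same 4 CD + Veh libraries, so these comparisons are not independent. The values of 2 groups did not overlap in 4, 10, 5 and 7 of the 35 genes in the comparisons above, in that order, against 7.83%, 16.2%, 3.57% and 6.18% of all genes tested.

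**Figure D1:**
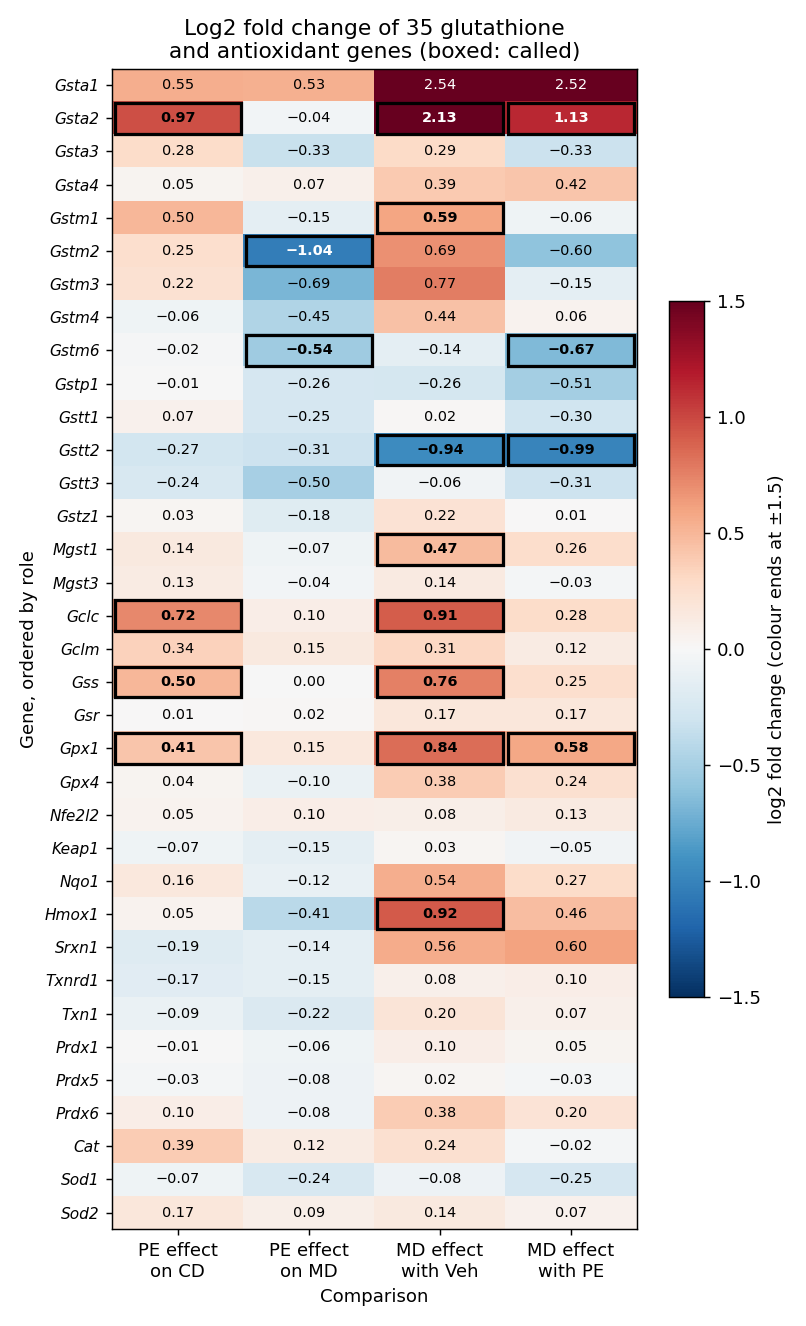
Log2 fold change of each of the 35 genes (rows, ordered by role) in the PE and diet comparisons (columns), as numbers and colour, with called values boxed. The boxes in the PE column on CD are all positive (Gsta2, Gclc, Gss and Gpx1), and those in the PE column on MD are the negative values of Gstm2 and Gstm6.

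Of the 3 glutathione synthesis genes, Gclc and Gss rose after PE on the CD and with MD and vehicle, and Gclm was called in neither. Gclc, the catalytic subunit of the rate-limiting ligase, stood at 171, 208, 217 and 203 CPM in the 4 CD + Veh livers. It stood at 338, 337, 364, 285 and 322 CPM after PE on the CD. In MD + Veh it stood at 335, 491, 423, 359 and 261 CPM, and in MD + PE at 380, 414, 425, 416 and 365 CPM. Every liver of the other groups lay above every CD + Veh liver, and the MD + PE livers lay within the range of MD + Veh. Gclc rose by 0.72 ± 0.13 on the log2 scale (SE; 1.65-fold) after PE on the CD, with an edgeR adjusted p of 0.00512. With MD and vehicle it rose by 0.91 ± 0.13 (edgeR adjusted p = 0.000151). With MD in PE mice the difference was 0.28 and was not called (edgeR adjusted p = 0.187). Its PE effect on the MD was 0.10, with a 95% interval of −0.16 to 0.35. The Gclc calls were kept in all 19 fits that left out 1 library and in the fit without the 3 libraries that stood apart. Taking the library division into the fit, which for PE on the CD borrows the division's size from MD + Veh, gave 1.15.

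Gss, which completes glutathione, showed a similar order of groups at a lower level. Its values were 41.9, 31.4, 48.4 and 32.7 CPM in CD + Veh and 54.5, 45, 58.0, 51.9 and 64.5 CPM in CD + PE. They were 60.7, 65.7, 68.4, 64.7 and 67.3 CPM in MD + Veh and 66.7, 57.1, 63.0, 75.6 and 63.3 CPM in MD + PE. One CD + PE liver fell within the CD + Veh range, while both MD groups lay wholly above it. Gss rose by 0.50 ± 0.12 after PE on the CD (edgeR adjusted p = 0.0241) and by 0.76 ± 0.12 with MD and vehicle (edgeR adjusted p = 0.000329). The call after PE was lost on leaving out CD + PE replicate 3 or 5 or CD + Veh replicate 2 or 4, with values of 0.42 to 0.48 and edgeR adjusted p of 0.0534 to 0.0847. It was also lost with the library division in the fit (0.48, edgeR adjusted p = 0.365). On the MD the effect of PE on Gss was 0.00, with an interval of −0.24 to 0.23. From CD + PE to MD + PE Gss differed by 0.25, which was not called (edgeR adjusted p = 0.195).

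Gclm, the modifier subunit, passed the p threshold and not the fold threshold. Its levels were 170, 154, 182 and 138 CPM in CD + Veh, and PE on the CD gave 206, 179, 215, 209 and 208 CPM. MD + Veh livers had 181, 199, 199, 229 and 189 CPM, and MD + PE livers 209, 215, 246, 217 and 221 CPM. CD + PE replicate 2 was the only CD + PE liver inside the CD + Veh range. The log2 difference was 0.34 ± 0.09 for PE on the CD (edgeR adjusted p = 0.0297) and 0.31 ± 0.08 for MD with vehicle (edgeR adjusted p = 0.0181). Without CD + PE replicate 2 Gclm was called. Gsr, which returns oxidized glutathione to its thiol form, had differences of 0.01 to 0.17 in the PE and diet comparisons and was called in none.

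**Figure D2:**
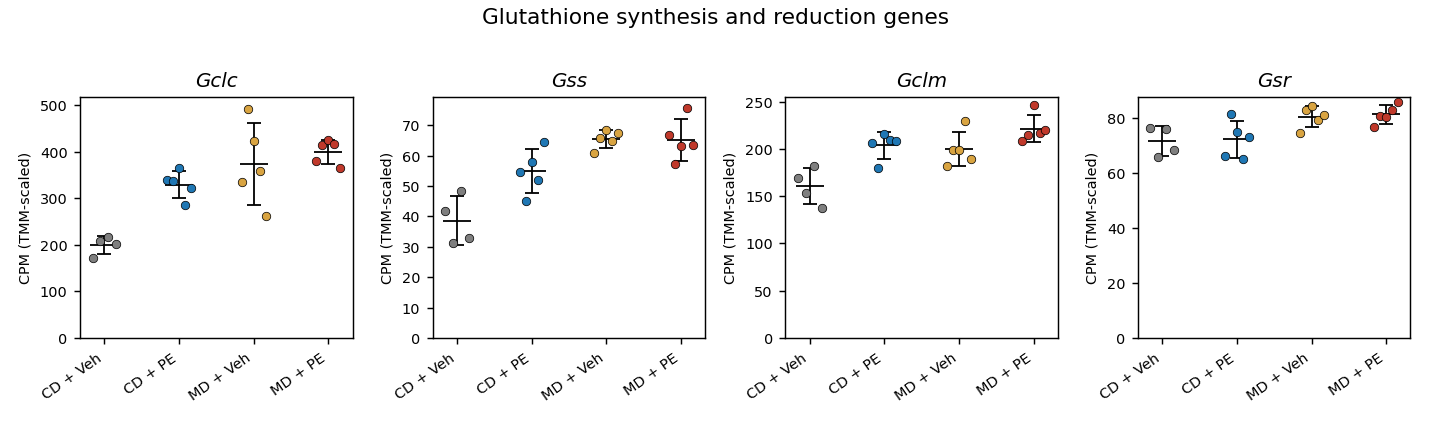
Level of Gclc, Gss, Gclm and Gsr in each liver (points; vertical axis, TMM-scaled CPM from 0) by group (horizontal axis), with the mean as a dash and bars of 1 SD. Gclc in CD + Veh (171 to 217 CPM) lies below every other liver, while for Gsr the PE and vehicle livers overlap on each diet.

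Among the alpha transferases, which conjugate electrophiles and reduce lipid peroxides, Gsta2 had the largest called rise of the 35 genes. It stood at 4.60, 6.80, 6.58 and 5.19 CPM in CD + Veh and at 9.38, 16.4, 15.8, 7.53 and 7.21 CPM in CD + PE. MD + Veh livers had 24.9, 25.3, 34.1, 26.1 and 16.3 CPM, and MD + PE livers 31.7, 17.9, 23.2, 21.5 and 29.5 CPM. CD + PE lay wholly above CD + Veh, and MD + PE wholly above CD + PE. Gsta2 rose by 2.13 ± 0.26 with MD (4.38-fold; edgeR adjusted p = 2.66e-05). It rose by 0.97 ± 0.27 after PE on the CD (edgeR adjusted p = 0.0475) and by 1.13 ± 0.24 from CD + PE to MD + PE (edgeR adjusted p = 0.00568). The PE call on the CD was kept in only 7 of 19 fits that left out 1 library. It was lost without any 1 of CD + Veh replicates 1 to 4, CD + PE replicates 1 to 3, MD + Veh replicates 1, 2 and 4, or MD + PE replicates 3 and 5, with values of 0.79 to 1.05 and edgeR adjusted p of 0.0541 to 0.141. Without the 3 libraries that stood apart it was 0.79 (edgeR adjusted p = 0.108), and with the library division in the fit 1.37 (edgeR adjusted p = 0.159).

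Gsta1, the near copy of Gsta2, was called nowhere and was uneven within groups. It was at 3.98, 0.501, 0 and 0.606 CPM in CD + Veh and at 0.415, 7.19, 0.706, 0.803 and 0.296 CPM in CD + PE. The 0 allows up to 0.201 CPM (3 counts; counting error only). MD + Veh livers had 3.17 to 11.6 CPM and MD + PE livers 2.43 to 19.9 CPM, the highest of them in the library with high intestinal markers. Summed over both genes, the level was 7.06 ± 1.19 CPM in CD + Veh (SD, n = 4). It was 13.1 ± 6.83 CPM after PE on the CD, 32.9 ± 8.56 CPM with MD and 35.7 ± 5.66 CPM with both (SD, n = 5 each).

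Gsta3, the most abundant alpha member, stood at 779, 946, 812 and 961 CPM in CD + Veh and at 1056, 1057, 1180, 965 and 1048 CPM in CD + PE. On the MD it stood at 953, 1109, 1029, 1233 and 1013 CPM with vehicle and at 919, 946, 781, 713 and 874 CPM with PE. The PE livers lay wholly above the vehicle livers on the CD and wholly below them on the MD. Neither difference was called (0.28 ± 0.10 and −0.33 ± 0.09, with edgeR adjusted p of 0.128 and 0.0744). From CD + PE to MD + PE the difference was −0.33, past the p threshold (edgeR adjusted p = 0.0391) and short of the fold threshold. The alpha family summed before the fit, most of it Gsta3, was called in no comparison. With MD and vehicle it rose by 0.33 ± 0.10, past the p threshold (edgeR adjusted p = 0.0295) and short of the fold threshold.

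Of the 5 mu transferases, MD with vehicle raised Gstm1, and PE on the MD lowered Gstm2 and Gstm6. Gstm2 stood at 29.4, 41, 34.4 and 49 CPM in CD + Veh and at 43.8, 62.5, 45.1, 36.5 and 40.4 CPM in CD + PE. In MD + Veh it stood at 59.4, 81.8, 72.3, 53.9 and 42.8 CPM, and in MD + PE at 34.5, 34.8, 13.0, 34.7 and 33.6 CPM. Every MD + PE liver was below every MD + Veh liver. Gstm2 fell by 1.04 ± 0.23 after PE on the MD (2.06-fold lower; edgeR adjusted p = 0.0291).

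Gstm6 stood at 66.7, 81.3, 72.3 and 87.2 CPM in CD + Veh and at 82.1, 82.5, 82.6, 68.4 and 64.1 CPM in CD + PE. It stood at 70.9, 79.6, 77.5, 59.1 and 60.7 CPM in MD + Veh and at 52.4, 52, 38, 49.3 and 47.8 CPM in MD + PE. The MD + PE livers lay below those of every other group. Gstm6 fell by 0.54 ± 0.11 after PE on the MD (edgeR adjusted p = 0.0183) and by 0.67 ± 0.11 from CD + PE to MD + PE (edgeR adjusted p = 0.000891). Gstm2 and Gstm6 were identical at 85.63% of aligned coding bases, so reads may be shared and the falls need not be separate. With counts summed over the mu family before the fit, the difference for PE on the MD was −0.23 (edgeR adjusted p = 0.539). In MD + Veh, Gstm1 made up a mean of 1195 of the 1413 CPM of the 5 mu members. The sum can therefore hardly show a fall of Gstm2 and Gstm6, and it decides nothing about them. The falls of Gstm2 and Gstm6 after PE on the MD were sensitive to single libraries. Gstm2 lost its call without MD + Veh replicate 1, 2 or 3 or MD + PE replicate 2 or 4 (−1.10 to −0.92, edgeR adjusted p of 0.05001 to 0.0834). Gstm6 lost its call without MD + Veh replicate 1, 2 or 3 or MD + PE replicate 3 (−0.52 to −0.47, edgeR adjusted p of 0.0513 to 0.0591). With the library division in the fit, which compares MD + PE with MD + Veh replicates 4 and 5, the values were −0.68 for Gstm2 and −0.32 for Gstm6, with edgeR adjusted p of 0.473 and 0.458. Without the 3 libraries that stood apart, the values were −1.10 and −0.55, with edgeR adjusted p of 0.0713 and 0.0804.

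Gstm1 was the most abundant mu transferase, at 665, 775, 767 and 964 CPM in CD + Veh and 996, 1637, 1118, 1013 and 843 CPM in CD + PE. It was at 1117, 1581, 1293, 1016 and 970 CPM in MD + Veh and 1188, 1066, 809, 1151 and 1168 CPM in MD + PE. It rose by 0.59 ± 0.18 with MD and vehicle (edgeR adjusted p = 0.0337), where the groups did not overlap. The call was lost without CD + Veh replicate 1, 2 or 3 or MD + Veh replicate 2 or 3 (0.47 to 0.58, edgeR adjusted p of 0.0685 to 0.105). After PE on the CD the difference was 0.50 ± 0.18 and was not called (edgeR adjusted p = 0.132). From CD + PE to MD + PE it was −0.06 and was also not called (edgeR adjusted p = 0.881). Gstm3 and Gstm4 were called nowhere, with differences of −0.69 and −0.45 for PE on the MD and 0.77 and 0.44 for MD with vehicle. Summed over the 5 mu members, the level was 965 ± 139 CPM in CD + Veh (SD, n = 4). It was 1303 ± 337 CPM after PE on the CD, 1413 ± 292 CPM with MD and 1213 ± 186 CPM with both (SD, n = 5 each). The mu family summed before the fit, most of it Gstm1, was called in no comparison.

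Gstt2, a theta transferase, was lowered by MD with vehicle and with PE. Its values were 22.1, 42, 33.6 and 56.4 CPM in CD + Veh and 31.1, 16.8, 46.8, 28.1 and 36.8 CPM in CD + PE. They were 17.2, 27.2, 21.0, 18 and 16.5 CPM in MD + Veh and 19.3, 13.5, 15.9, 15.4 and 16.4 CPM in MD + PE. The CD groups were spread widely and overlapped the MD groups at their low ends. Gstt2 fell by 0.94 ± 0.25 with MD and vehicle (edgeR adjusted p = 0.0152) and by 0.99 ± 0.24 with MD and PE (edgeR adjusted p = 0.0179). Without CD + Veh replicate 4 the first value was −0.69 (edgeR adjusted p = 0.0888), and without CD + PE replicate 3 the second was −0.81 (edgeR adjusted p = 0.0590). With the library division in the fit, which compares MD + Veh replicates 1 to 3 with CD + Veh, the first was −0.82 (edgeR adjusted p = 0.0630).

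Mgst1, a membrane-bound transferase that also reduces lipid peroxides, had the highest level per kilobase of transcript of the 35 genes in CD + Veh (1789 ± 114 CPM per kilobase, SD, n = 4). In CPM it stood at 1974, 2301, 2105 and 2163 in CD + Veh and at 2531, 2367, 2485, 2253 and 2140 in CD + PE. In MD + Veh it stood at 2606, 2767, 3113, 2986 and 3321 CPM, and in MD + PE at 2941, 2628, 2609, 2715 and 3240 CPM. Both MD groups lay above both CD groups. Mgst1 rose by 0.47 ± 0.09 with MD and vehicle (edgeR adjusted p = 0.00178), in all 19 fits that left out 1 library. The other transferases, Gsta4, Gstp1, Gstt1, Gstt3, Gstz1 and Mgst3, were called in no comparison. Gstp1 ranged from 580 to 1577 CPM within CD + Veh alone, and its interval for PE on the CD ran from −0.69 to 0.67. Summed with Gstp2 and Gstp3, whose sequences were not compared with it, the level was 1155 ± 421 CPM in CD + Veh (SD, n = 4). This sum was 1133 ± 410 CPM in CD + PE, 957 ± 291 CPM in MD + Veh and 795 ± 318 CPM in MD + PE (SD, n = 5 each).

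**Figure D3:**
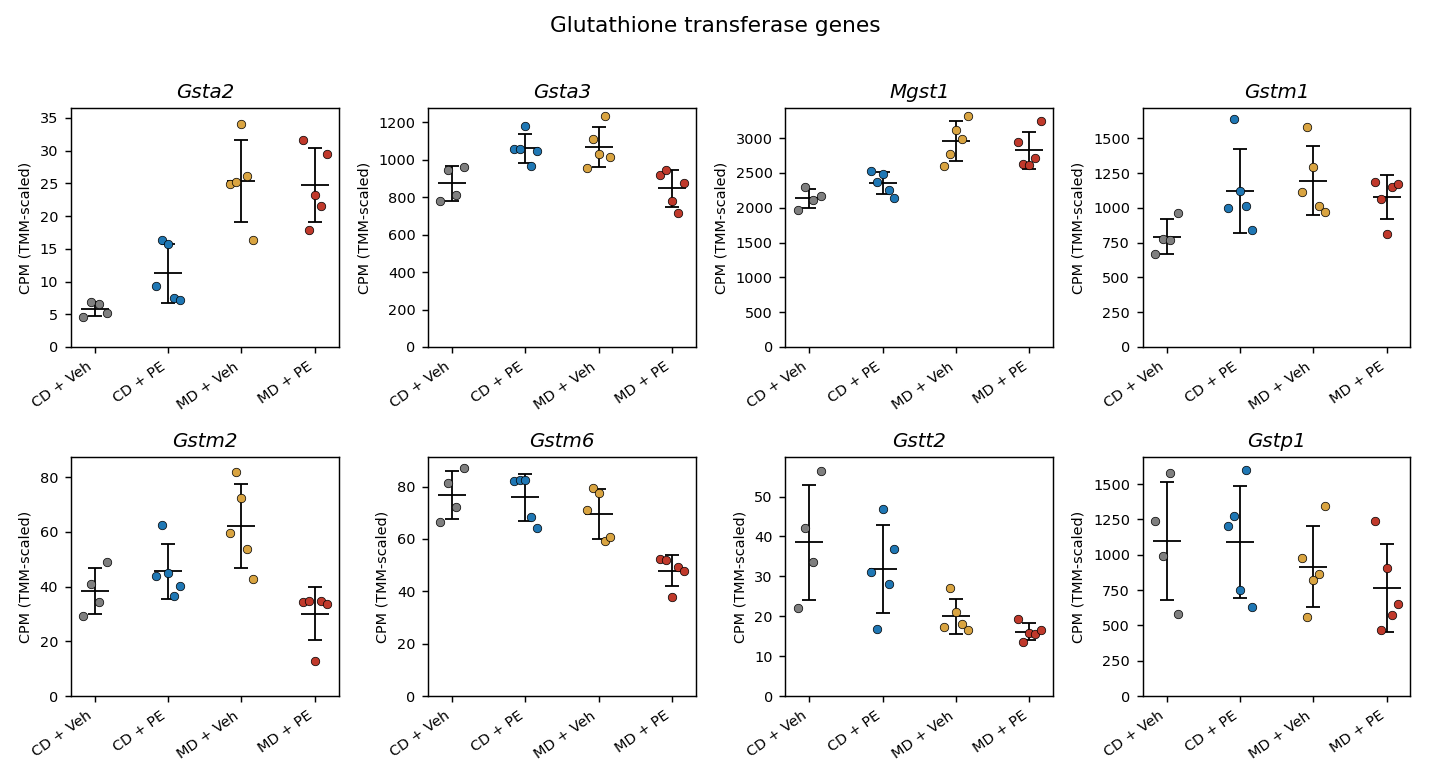
Level of 8 glutathione transferase genes in each liver (points; vertical axis, TMM-scaled CPM from 0) by group (horizontal axis), with the mean as a dash and bars of 1 SD. Gstm2 and Gstm6 are lower in every MD + PE liver (13.0 to 34.8 and 38 to 52.4 CPM) than in every MD + Veh liver.

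Gpx1, the cytosolic glutathione peroxidase that removes hydrogen peroxide, stood at 682, 898, 971 and 711 CPM in CD + Veh. PE on the CD gave 1188, 920, 1189, 1090 and 1038 CPM. MD + Veh livers had 1422, 1334, 1602, 1409 and 1513 CPM, and MD + PE livers 1814, 1422, 1536, 1531 and 1799 CPM. One CD + PE liver lay within the CD + Veh range, and both MD groups lay above all CD livers. Gpx1 rose by 0.41 ± 0.11 after PE on the CD (edgeR adjusted p = 0.0467), by 0.84 ± 0.11 with MD and vehicle (edgeR adjusted p = 7.43e-05) and by 0.58 ± 0.11 from CD + PE to MD + PE (edgeR adjusted p = 0.00202). Both diet calls were kept in all 19 fits that left out 1 library, and the PE call in 7. The PE call was lost without any 1 of CD + Veh replicates 1, 2 and 4, CD + PE replicates 1, 3, 4 and 5, MD + Veh replicates 2 to 4, or MD + PE replicates 3 and 5, with values of 0.35 to 0.46 and edgeR adjusted p of 0.0510 to 0.140. With the library division in the fit it was 0.40 (edgeR adjusted p = 0.431).

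The diet comparisons with vehicle and with PE share no libraries. Of the 8 genes called with vehicle and the 4 called with PE, Gsta2, Gpx1 and Gstt2 were called in both, in the same direction, which is 37.5% of the first list and 75% of the second. Over all genes tested, 393 were called in both in the same direction, which is 27.9% and 62.7% of the lists. The sign of the diet difference was the same in 26 of the 35 genes and in 69.4% of all genes tested.

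Other enzymes that remove peroxides and superoxide were called in no comparison. Gpx4, which protects membranes from lipid peroxides, had a difference of 0.38 with MD (interval 0.10 to 0.66, edgeR adjusted p = 0.0608). Catalase (Cat), the peroxisomal enzyme that splits hydrogen peroxide, stood at 2423 to 3217 CPM in CD + Veh and at 3428 to 4295 CPM in CD + PE. These groups did not overlap, and the difference of 0.39 ± 0.13 was not called (edgeR adjusted p = 0.0940). Gclc, Gsta2, Gsta3 and Cat were the 4 genes without overlap in that comparison. The superoxide dismutases Sod1 and Sod2 had differences of −0.25 to 0.17 in the PE and diet comparisons. Prdx6, which reduces phospholipid peroxides, passed the p threshold with MD (0.38 ± 0.09, edgeR adjusted p = 0.00809), where it fell just short of the fold threshold, and Prdx1 and Prdx5 stayed within −0.08 to 0.10.

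Nfe2l2 and Keap1, the regulator and its inhibitor, were called in no comparison. Nfe2l2 stood at 61.3, 65.5, 63.2 and 83.0 CPM in CD + Veh and at 84.4, 56.8, 74.7, 67.7 and 70.1 CPM in CD + PE. It stood at 66.8, 75.9, 72.6, 72.6 and 73.8 CPM in MD + Veh and at 84.3, 81.7, 68.7, 84.0 and 68.9 CPM in MD + PE, so that all groups overlapped. Its difference for PE on the CD was 0.05, with an interval of −0.17 to 0.27, and for MD it was 0.08, with an interval of −0.14 to 0.31. Keap1 stood at 72.4, 69.5, 67.0 and 69.6 CPM in CD + Veh and at 61.9, 66.7, 72.7, 64.1 and 66.6 CPM in CD + PE. It stood at 70.7, 74.7, 77.2, 64.9 and 66.9 CPM in MD + Veh and at 65.2, 61.8, 61.5, 68.2 and 63.3 CPM in MD + PE, and every group overlapped the others. Its differences were −0.07 for PE on the CD (interval −0.20 to 0.06), 0.03 for MD (−0.10 to 0.16) and −0.15 for PE on the MD (−0.27 to −0.02, edgeR adjusted p = 0.225).

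Of Hmox1, Nqo1 and Srxn1, 3 textbook NRF2 targets outside glutathione metabolism, Hmox1 was called, in 1 comparison. Hmox1, which degrades heme, stood at 11.6, 7.88, 11.4 and 9.29 CPM in CD + Veh. It stood at 8.80, 22, 6.62, 7.13 and 7.41 CPM in CD + PE, where the high value belongs to the library with high Kupffer cell markers. MD + Veh livers had 14.5, 23.4, 19.2, 17.2 and 20.9 CPM, all above CD + Veh, and MD + PE livers had 19.9, 12.3, 10.6, 16 and 12.9 CPM. With MD in PE mice Hmox1 differed by 0.46, which was not called (edgeR adjusted p = 0.345). With MD and vehicle it rose by 0.92 ± 0.29 (edgeR adjusted p = 0.0385). The call was lost without any 1 of the CD + Veh replicates or of MD + Veh replicates 2, 3 and 5 (0.82 to 1.01, edgeR adjusted p of 0.0608 to 0.106). With the library division in the fit it was also lost (0.92, edgeR adjusted p = 0.0648). Without the 3 libraries that stood apart, Hmox1 was called with MD in both vehicle and PE mice (1.00 in each, edgeR adjusted p of 0.000913 and 0.00258).

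Nqo1, a quinone reductase often used as an NRF2 readout, was scarce, at 2.99, 3.94, 1.27 and 5.12 CPM in CD + Veh and 3.49, 6.67, 3.53, 1.51 and 3.26 CPM in CD + PE. It was at 5.32, 6.50, 5.46, 4.10 and 2.78 CPM in MD + Veh and 3.09, 6.15, 2.78, 5.56 and 4.76 CPM in MD + PE, so that all groups overlapped. Its difference was 0.16 for PE on the CD, with an interval of −0.65 to 0.96, and 0.54 for MD, with an interval of −0.25 to 1.34. Srxn1, which repairs peroxiredoxins, differed by 0.56 and 0.60 with MD in vehicle and PE mice (edgeR adjusted p of 0.0712 and 0.0644). The thioredoxin genes Txn1 and Txnrd1 were called nowhere, with differences of −0.22 to 0.20.

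**Figure D4:**
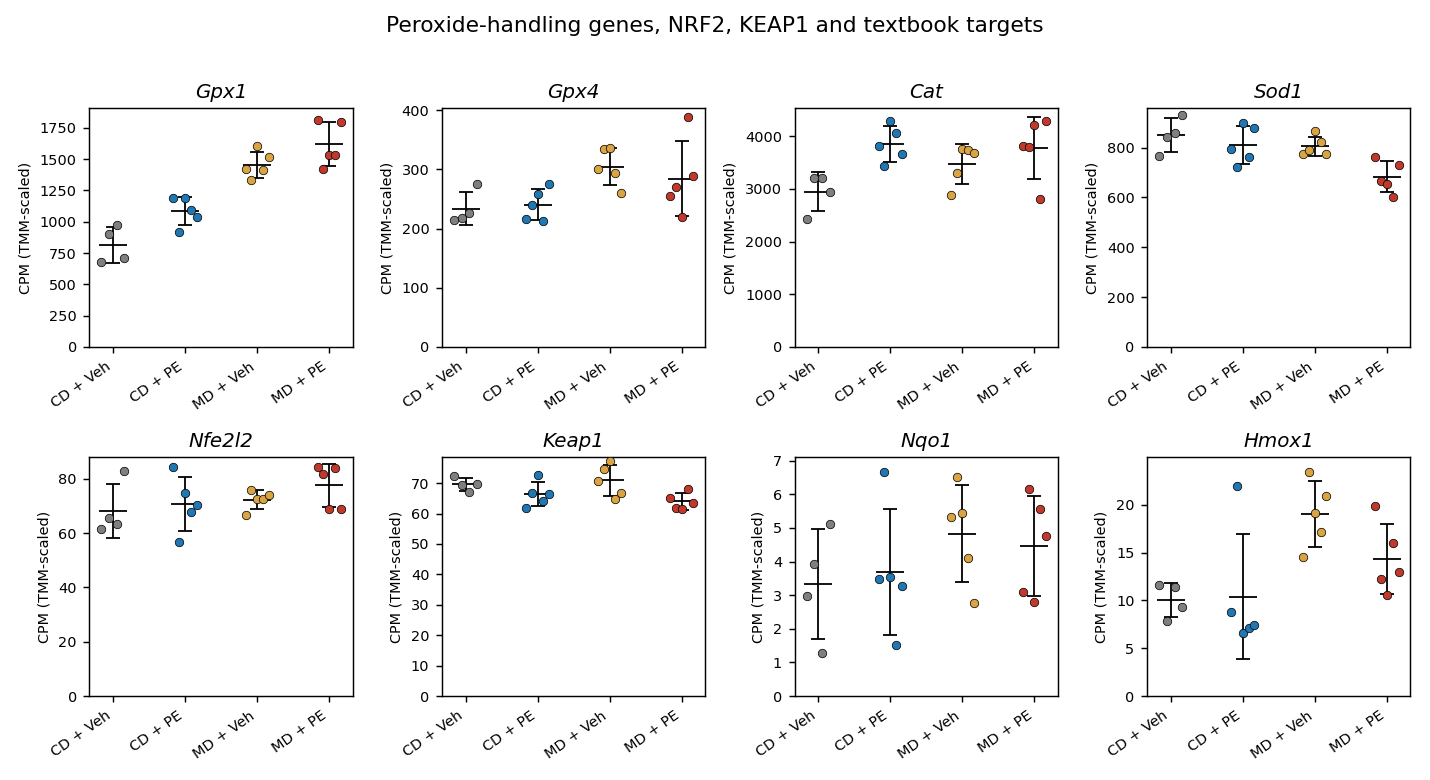
Level of Gpx1, Gpx4, Cat, Sod1, Nfe2l2, Keap1, Nqo1 and Hmox1 in each liver (points; vertical axis, TMM-scaled CPM from 0) by group (horizontal axis), with the mean as a dash and bars of 1 SD. Gpx1 is higher in every MD liver (1334 to 1814 CPM) than in every CD liver, whereas the groups overlap for Nfe2l2 and Keap1.

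Whether the PE effect differed between the diets was tested as the interaction of PE and diet. None of the 35 genes was called by edgeR, where 1 of 13597 genes was (0.00735%). At an unadjusted p below 0.05 there were 7 (Gsta2, Gsta3, Gstm1, Gstm2, Gstm6, Gclc and Gss), where 8.77% of all genes tested were below it (5.27% with a negative difference). The 7 all had a smaller or more negative PE effect on the MD than on the CD. The difference was −0.62 ± 0.18 for Gclc, −0.51 ± 0.16 for Gss, −1.0 ± 0.35 for Gsta2 and −1.29 ± 0.34 for Gstm2, with edgeR adjusted p of 0.216 to 0.377. The sign was negative in 30 of the 35 genes and in 53% of all genes tested, with a median of −0.21 beside −0.02 over all genes. DESeq2 called 80 of the 26185 genes it fitted. Of the 35 genes it called 2, Gsta3 (−0.60, DESeq2 adjusted p = 0.00735) and Gstm2 (−1.28, DESeq2 adjusted p = 0.0364).

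**Figure D5:**
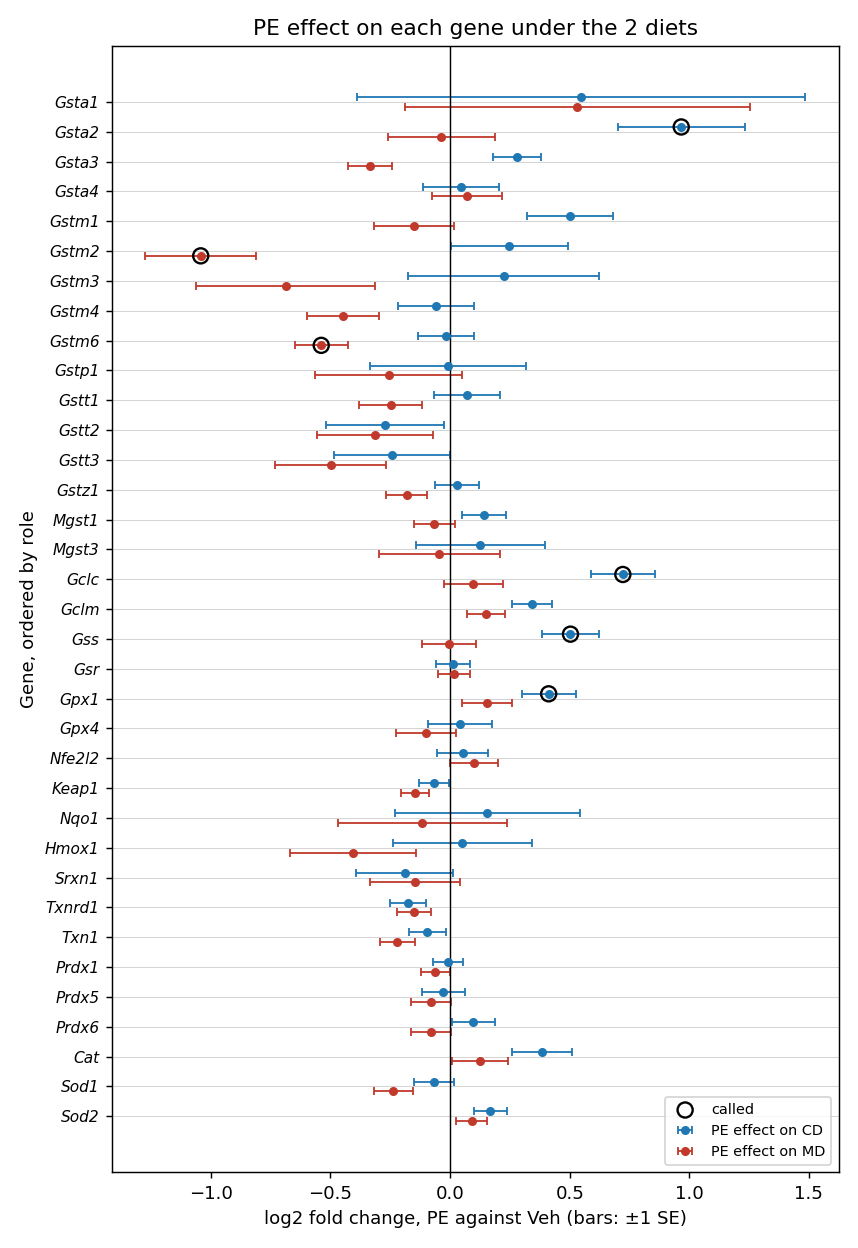
Log2 fold change of PE against vehicle (horizontal axis; bars of 1 SE) for each of the 35 genes (vertical axis, ordered by role) on the CD (blue) and on the MD (red), with called values circled. The circled values on the CD lie to the right of 0 (0.41 to 0.97) and those on the MD to the left (−1.04 and −0.54).

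Further genes of the same pathways were read from 2 lists that do not contain the 35. Of 28 other glutathione genes tested, PE on the CD lowered 1 and raised none, and MD raised 1 and lowered 2, with medians of 0.07 and 0.10. PE on the MD lowered 2, and MD in PE mice raised 1 and lowered 2. Of all genes tested, 2.92%, 10.4%, 1.08% and 4.61% were called in these comparisons, in that order. Gstp3, a pi transferase, fell in each, by 1.18 ± 0.14 after PE on the CD, 1.08 ± 0.13 with MD, 0.63 ± 0.13 after PE on the MD and 0.53 ± 0.14 with MD in PE mice (edgeR adjusted p of 2.65e-05 to 0.0220). Gstm7 fell by 0.58 ± 0.10 after PE on the MD (edgeR adjusted p = 0.00702), in the same direction as Gstm2 and Gstm6. Gstk1 rose by 0.55 with MD and Gstm5 fell by 0.73. Chac1, which degrades glutathione, rose by 1.83 ± 0.35 from CD + PE to MD + PE (edgeR adjusted p = 0.00308).

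Of 46 other NRF2-related genes tested, PE on the CD raised 3 and lowered 3, and MD raised 6 and lowered 8, with medians of −0.08 and 0.00. MD in PE mice raised 4 and lowered 3. Of all genes tested, 2.92%, 10.4% and 4.61% were called in these comparisons, in that order. Ephx1, the microsomal epoxide hydrolase, rose by 0.89 ± 0.09 after PE on the CD and by 1.38 ± 0.09 with MD (edgeR adjusted p of 8.22e-05 and 3.52e-08). Aldh1a1 and Aox1, which oxidize aldehydes, rose by 0.86 and 0.78 after PE on the CD and by 1.15 and 1.23 with MD. The 3 genes that fell after PE on the CD were G6pdx and Pgd, dehydrogenases of the pentose phosphate pathway, and Me1, the cytosolic malic enzyme. G6pdx fell by 2.23 ± 0.37, Me1 by 1.25 ± 0.20 and Pgd by 0.94 ± 0.19 (edgeR adjusted p of 0.00176 to 0.00802). With MD they fell by 3.05, 1.49 and 0.80. PE on the MD raised none and lowered 3 (Me1, Tkt and Taldo1, by 0.82, 0.44 and 0.39), where 1.08% of all genes were called.

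Other measures moved with the groups. The marker counts below stand beside 2.92% of all genes called for PE on the CD and 10.4% for MD with vehicle. For PE on the MD and for MD in PE mice the shares were 1.08% and 4.61%. A clock score was the mean log2 CPM of 6 genes of the activator arm minus that of 10 repressor and output genes. Its median was −2.54 in CD + Veh and −1.22 after PE on the CD, and −0.21 with MD and −0.55 with both. Its range in CD + Veh (−3.17 to −2.09) lay below those of CD + PE (−2.05 to 1.07), MD + Veh (−1.27 to 0.43) and MD + PE (−1.18 to 0.43). A fit with the score can therefore hardly tell it apart from the comparisons with CD + Veh. With the score in the fit, the Gclc rise was 0.52 after PE on the CD (edgeR adjusted p = 0.0687) and 0.60 with MD (edgeR adjusted p = 0.0799). The other calls lost in that fit were those of Gpx1 (0.44) and Gsta2 (0.37) after PE on the CD and of Gstm1 (0.03), Gstt2 (−0.66), Hmox1 (0.02) and Mgst1 (0.50) with MD. Of 12 pericentral hepatocyte markers, 3 rose after PE on the CD (Oat, Lect2 and Lgr5) and 4 with MD, and their summed level ranged from 5161 to 7389 CPM in CD + Veh, 6544 to 9464 CPM after PE on the CD, 7742 to 9041 CPM with MD and 8536 to 12181 CPM with both. Of 12 periportal markers, 2 fell after PE on the CD and 5 with MD, and their summed level ranged from 10343 to 13840 CPM in CD + Veh, 8862 to 13215 CPM after PE on the CD, 9055 to 11497 CPM with MD and 7083 to 9861 CPM with both. Of 8 hepatocyte markers, MD lowered 3 with vehicle and 5 with PE, and PE on the MD lowered 1. Gls2 and Ass1, the 2 periportal markers that fell after PE on the CD, also fell after PE on the MD, and MD in PE mice lowered 5 periportal markers, with no pericentral marker called in either. Of 8 lipid-associated macrophage markers, MD raised 3 and lowered 2 with vehicle and raised 1 (Gpnmb) and lowered 1 (Fabp5) with PE, and PE on the CD lowered 1 (Fabp5). No Kupffer cell, erythroid or endothelial marker was called by edgeR in any comparison. The summed Kupffer cell level was still 181 to 281 CPM in MD + Veh and 89.7 to 160 CPM in CD + Veh, without overlap. It was 76.0 to 639 CPM in CD + PE and 150 to 282 CPM in MD + PE. Summed erythroid markers stood at 147 to 221 CPM in CD + Veh and 183 to 746 CPM in MD + Veh, which overlapped. MD raised 1 of 2 intestinal markers tested (Fabp2) and 1 of 6 bile duct markers (Krt23) both with vehicle and with PE, and 1 of 8 stellate markers (Reln) with PE. MD with vehicle raised 11 of 11 skeletal muscle markers, and PE on the MD, the comparison in which Gstm2 and Gstm6 fell, lowered 6 of the 11. Their summed level was 3.09 to 4464 CPM in MD + Veh and 1.24 to 3.25 CPM in MD + PE. Of the 6 activator clock genes, PE on the CD raised 2 (Bmal1 and Clock) and MD with vehicle 5, and of the 10 repressor and output genes MD with vehicle lowered 5. The part of clock phase, of zonal markers and of the depth of the libraries in the results above was not tested beyond these fits, and in bulk liver fewer cells of a type and less RNA per cell cannot be told apart.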

How the data were processed

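Liver RNA-seq libraries of 19 mice were analysed. The authors trimmed reads with fastp 0.23.4, quantified them with Salmon 1.10.3 against the GENCODE transcriptome of GRCm39 (release not given in the sources used here) and summed transcripts to genes. The deposited table holds estimated counts, rounded by the authors to whole numbers and not normalized. Groups came from the sample labels, and nothing was imputed or dropped. Counts were fitted in R 4.3.3 with edgeR 4.0.16 (TMM, filterByExpr by group, quasi-likelihood test, 1 coefficient per group over all 19 libraries), with Benjamini-Hochberg adjustment over 13597 genes. SE was taken from the log2 fold change and the F statistic, and 95% intervals use the t quantile of the fit. With 10398820 to 15456729 counts per library, 1 CPM stands for 10.4 to 15.5 counts. DESeq2 1.42.0 was an alternative, beside other normalizations, filters, covariates and libraries. The code was tested on simulated data. Libraries were checked for copies: no pair of 1 group shared identical values in more than 1.85% of genes that had 20 or more counts.

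The genes, lists and tests were chosen with earlier results of these data known. Genes called in any comparison were named with every value, and Nfe2l2, Keap1, Gclc, Gclm, Nqo1 and Hmox1 in every case. Leaving out 3 libraries together was added after the data had been seen. Near copies were found from coding sequences of the alpha, mu and theta members, since protein sequences were not used here. All gene lists were read in the same fit: Kupffer cell, lipid-associated macrophage, erythroid, intestinal, skeletal muscle, bile duct, endothelial, stellate, hepatocyte and zonal markers, clock genes, and the glutathione and NRF2 lists.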

Additional observations from a re-analysis of the deposited data

Results flagged for a closer look

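Within groups, 10 of 140 sets of values (35 genes in 4 groups) held 1 liver far from the others, where chance gives about 1 in 20. In CD + PE replicate 2, the library with high Kupffer cell markers, 5 genes stood apart. Hmox1 was at 22 CPM there (others 6.62 to 8.80), Gsta1 at 7.19 CPM (0.296 to 0.803), Gclm at 179 CPM (206 to 215), Prdx6 at 362 CPM (409 to 427) and Sod2 at 206 CPM (230 to 240). Gsta1 was at 3.98 CPM in CD + Veh replicate 1 (others 0 to 0.606). Gstm2 was at 13.0 CPM in MD + PE replicate 3 (33.6 to 34.8). Gstz1 was at 511 CPM in MD + Veh replicate 1 (583 to 606) and at 418 CPM in MD + PE replicate 4 (509 to 546). Mgst3 was at 17.0 CPM in CD + PE replicate 3 (9.94 to 11.4).

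Gsta3 differed in the direction of its PE effect between the diets. All PE livers were above the vehicle livers on the CD and below them on the MD. The interaction was −0.61 ± 0.14 on the log2 scale, with an unadjusted p of 0.000241 and an edgeR adjusted p of 0.216.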

How the results depend on the processing

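The number of the 35 genes called depended on the setting, and counts over all genes in these settings are given further below. PE on the CD called 4. It called 2 with no filter on low counts, with the clock score as a covariate and after thinning to equal depth, and 1 with the library division as a covariate or only the 2 groups compared. MD with vehicle called 8. It called 13 with DESeq2 and with only the 2 groups compared, and 4 with the clock score. PE on the MD called 2. It called 0 with only the 2 groups compared, with the library division and without the 3 libraries. MD in PE mice called 4, and 7 without the 3 libraries. The interaction called 0, but 2 with DESeq2 and 1 with the library division. Leaving out 1 library gave 1 to 5, 6 to 12, 0 to 2, 3 to 7 and 0 to 0 genes, in that order. PE on the CD was lowest (1) without CD + PE replicate 3 or CD + Veh replicate 2 or 4, PE on the MD was lowest (0) without MD + Veh replicate 1, 2 or 3, and MD in PE mice was highest (7) without CD + PE replicate 2.

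The replicate block gave 3, 11, 2, 5 and 0, and 419, 1448, 178, 606 and 41 over all genes. The labels share replicate numbers across groups without saying that they mark a pair, and the residuals of 27 same-numbered pairs had a median correlation of 0.0293 (6 were above 0.1), so the libraries were treated as unpaired. With the block, the Gpx1 call after PE on the CD was lost (0.40, edgeR adjusted p = 0.0611), and Hmox1 in that comparison was −0.00855.

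Signs turned in genes that were not called. For PE on the CD, Hmox1 was −0.71 with the clock score, −0.0136 after thinning and −0.43 without the 3 libraries, and Nqo1 was −0.47 with the clock score and −0.17 without the 3 libraries. Keap1 was 0.10 with the library division. Leaving out 1 library gave −0.00765 to 0.173 for Nfe2l2, −0.17 to 0.46 for Nqo1 and −0.42 to 0.18 for Hmox1. For MD, Keap1 was −0.0536 and Nqo1 −0.25 with the clock score, and Keap1 ran from −0.00525 to 0.0569 over the fits without 1 library. For PE on the MD, Nqo1 was 0.38 with the library division, and without 1 library Gclc ran from −0.00447 to 0.216 and Nqo1 from −0.256 to 0.0148. With counts summed over the alpha family, the value of Gsta2 from CD + PE to MD + PE became −0.24, since Gsta3 makes up most of that sum.

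Over all genes, PE on the CD called 397 and 37 with the library division. It called 300 with no filter on low counts, 272 with the clock score, 381 after thinning and 289 with only the 2 groups compared. MD with vehicle called 1410, but 1589 with DESeq2, 1546 with only the 2 groups compared and 411 with the clock score. PE on the MD called 147, but 303 with DESeq2, 91 with GC and length trends removed, 73 with only the 2 groups compared, 58 without the 3 libraries and 33 with the library division. MD in PE mice called 627, but 866 without the 3 libraries and 964 with no minimum fold change. The interaction called 1, but 80 with DESeq2, 54 with the library division and 41 with the replicate block. Leaving out 1 library gave 215 to 426, 1019 to 1652, 56 to 243, 505 to 987 and 0 to 3. PE on the CD fell to 215 (CD + Veh replicate 4 left out), 235 (CD + Veh replicate 1) and 240 (CD + PE replicate 3). After PE on the MD the count fell to 56, 84, 84, 85 and 89 without MD + PE replicate 3 or 4, MD + Veh replicate 1, MD + PE replicate 2 or MD + Veh replicate 2, and rose to 243 without MD + Veh replicate 4. MD in PE mice rose to 987 without CD + PE replicate 2. The cause of these changes was not tested. Low-count genes such as Nqo1 and Gsta1 limit what this depth can show.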
